A study of Mus musculus with 6 samples.

Results

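Doxycycline withdrawal was compared with continued doxycycline in a cloned line made from NIH3T3, immortalised fibroblasts of the mouse. The comparison uses 4 of the 6 arrays of the study: 2 arrays of cells kept in doxycycline (2 µg/ml, called the doxycycline group) and 2 arrays of cells without it (the withdrawal group). All the cells carry c-myc and Ha-ras transgenes behind a Tet-off promoter, which doxycycline keeps silent, and all make a fusion of IRF-1 with the hormone-binding domain of human estrogen receptor (IRF-1hER) throughout. The fusion is dormant until estradiol is added, and the other 2 arrays (withdrawal with 48 h of estradiol) are given beside some values only. The arrays were chosen by their labels: 1 doxycycline and 1 withdrawal array of replicate 1, and 1 of each of replicate 2. The labels do not say that the replicates were separate cultures. Nor do they give the time since withdrawal, and the effect of doxycycline itself and that of the transgenes cannot be told apart. The doxycycline array of replicate 2 has a title that also names estradiol, while its treatment entry names nothing but doxycycline. It stays in the doxycycline group here, and results that rest on it are given with and without it.

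c-Myc is a transcription factor that, with its partner Max, binds E-box sequences and drives genes for ribosome production, nucleotide synthesis and cell division. Ha-Ras is a small GTPase that signals through the RAF, MEK and ERK kinases to growth genes such as cyclin D1 and Fosl1. Together the pair can transform rodent fibroblasts, which then divide without the usual growth signals and lay down less extracellular matrix. IRF-1 is a transcription factor of the interferon response that restrains growth and switches on genes of antiviral defence and antigen presentation.

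Each value is a MAS5 signal, which summarises the brightness of a set of short probes as 1 value on a linear scale. Differences are withdrawal minus doxycycline on the log2(signal + 32) scale, where 1 is 2-fold and where the change of dim probe sets is understated. The arrays had been brought to a common level, with trimmed means of 150.09 to 150.1, and the share of probe sets with a signal below 32 was 40.7% to 42.1%. Collagen genes marked the cells as fibroblasts, with Col1a2 at 5436 to 9197 and Col1a1 at 4211 to 6871 over the 4 arrays, although the probe set for vimentin (Vim) was at 6.5 to 40.7. The 12 fibroblast markers summed to 30042 and 27557 with doxycycline and to 21020 and 26796 after withdrawal, while no list of markers of 7 other cell types summed to more than 629 on these arrays.

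The similarity of the 4 arrays did not follow their labels. The 2 withdrawal arrays differed at least 2-fold from each other in 973 of 12422 probe sets. Withdrawal replicate 1 differed from the doxycycline arrays in 523 and 704 probe sets, and withdrawal replicate 2 in 352 and 642. The 2 doxycycline arrays differed in 325. Withdrawal replicate 1 differed from the estradiol array of replicate 1 in 18 probe sets. The 4 arrays also differed in how often 1 of them stood at least 2-fold above the 3 others, which was in 103 probe sets for doxycycline replicate 2, 95 for withdrawal replicate 1, 60 for withdrawal replicate 2 and 14 for doxycycline replicate 1. Each result below is therefore given per array. The replicate number goes with the RNA extraction in the labels (RNeasy for replicate 1 and TRIZOL for replicate 2), so a difference between replicate numbers and one between extractions cannot be told apart.

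No gene passed the test of withdrawal against doxycycline. Limma's moderated test, fitted on all 6 arrays and 12422 probe sets with Benjamini-Hochberg adjustment, called 0.0% of the probe sets, and its smallest adjusted p was 0.954. An unadjusted p under 0.05 was found for 534 probe sets, 252 higher and 282 lower after withdrawal. A fit with the replicate number as a block called 0 as well, and 642 probe sets had such an unadjusted p. Without doxycycline replicate 1 the fit called 4 genes, all lower after withdrawal, which are described with the interferon genes. An exact two-sided permutation test of 2 arrays against 2 cannot give a p below 0.333, so single genes are described by their signals.

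As a background for what follows, both withdrawal arrays lay above both doxycycline arrays in 2010 probe sets (16.2%) and below both in 1882 (15.2%). A gap of at least 1 log2 unit between the groups was found in 3 probe sets above (0.0242%) and 2 below (0.0161%). In both replicate numbers, 17 probe sets were at least 2-fold higher after withdrawal (0.137%) and 9 at least 2-fold lower (0.0725%). In replicate 1 alone, 1.92% of the probe sets were at least 2-fold higher and 2.29% lower. In replicate 2 alone these shares were 2.34% and 2.83%. Opposite differences of at least 2-fold were seen in 10 probe sets that were higher in replicate 1 (0.0805%) and 54 that were lower in replicate 1 (0.435%). Across the 12422 probe sets, which share arrays and are not independent, the differences of the 2 replicate numbers correlated at r = -0.084.

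**Figure D1:**
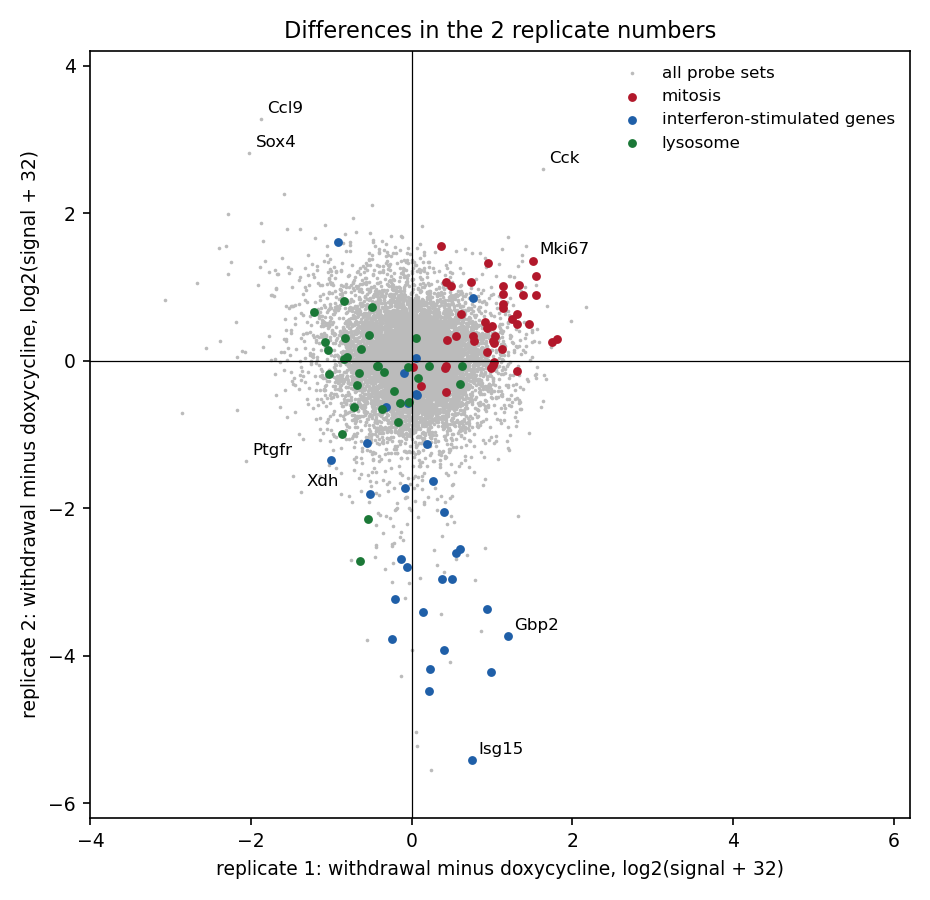
Withdrawal minus doxycycline on the log2(signal + 32) scale in replicate 1 (x axis) and replicate 2 (y axis), 1 point per probe set, with genes of 3 lists coloured. Mitosis genes lie to the right of 0, interferon-stimulated genes spread downwards along the replicate 2 axis, and Cck lies alone at the upper right.

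The transgenes themselves could be followed only in part. Myc had signals of 62.3 and 49.6 with doxycycline and of 25.7 and 118.5 after withdrawal. It was thus the lowest of the 4 arrays in withdrawal replicate 1 and the highest in withdrawal replicate 2. The labels do not say whether this probe set reads the transgene, and Hras had no probe set under its symbol. The 4 probe sets of the mouse estrogen receptor gene Esr1 had signals of 2.0 to 70.4 on the 4 arrays, and the labels do not say whether any reads the human part of the fusion. Of 10 genes of the Myc network, 6 were higher and 4 lower after withdrawal. Their median was 0.10, and it was -0.00 without doxycycline replicate 2 and -0.10 without withdrawal replicate 2. Max, the partner of Myc, had signals of 141.8 and 115.4 with doxycycline and of 199 and 229 after withdrawal. Mxi1, which competes with Myc for Max, had 121.8 and 111.9 against 163 and 208. For both, the groups did not overlap. They were the only 2 of the 10 genes clear of overlap above, and 1 was clear below. Over all named genes these shares were 16.1% higher and 15.3% lower, so 2 of 10 was near the background.

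Of 23 measured genes that follow ERK signalling, 15 were higher and 8 lower after withdrawal. The median was 0.17, and it was 0.05 without withdrawal replicate 1 and 0.10 without doxycycline replicate 1. The groups did not overlap in 8 higher (34.8%, against 16.1% of all named genes) and in 5 lower (21.7%, against 15.3%). Hmga2, a chromatin protein of embryonic and transformed cells, had 266 and 169.1 with doxycycline and 470.1 and 523 after withdrawal, a difference of 1.11 (SE 0.38). Fosl1, an AP-1 subunit, had 80.8 and 65.4 against 139.5 and 99.5 (0.52, SE 0.31). Plaur, the urokinase receptor, had 26.8 and 44.4 against 72.5 and 65.2. All 3 had both withdrawal arrays above both doxycycline arrays. The adjusted p with limma was 0.954 for each.

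Of the G1 regulators, 14 of 23 were higher and 9 lower (median 0.08). In each direction 4 were clear of overlap (17.4%). This was near the share over all named genes, which was 16.1% higher and 15.3% lower. The median was 0.01 without doxycycline replicate 2. Leaving out a withdrawal array made it -0.02 (replicate 1 left out) or 0.17 (replicate 2 left out). The cyclin D1 gene Ccnd1 was read by 2 probe sets that differed in replicate 2. The first had 148.6 and 135.7 with doxycycline and 371 and 227 after withdrawal, so that the groups were apart. The second had 148.8 and 127.8 against 412 and 54.2, so that withdrawal replicate 2 was the lowest array. Tfdp1, the partner of E2F, had 301 and 211 against 740.1 and 505 (1.18, SE 0.29), and its 2 dimmer probe sets differed by 0.70 and 0.27. The inhibitors Cdkn1b (p27) and Cdkn2c were lower on both withdrawal arrays, at 32.7 and 25.8 against 113.7 and 55.8 for Cdkn1b and at 557 and 417 against 774 and 752 for Cdkn2c. Cdkn1a, the p53 target p21, had 1233 and 1466 against 1519 and 419 in its brighter probe set, higher in replicate 1 and lower in replicate 2, and its other probe set (368 and 615 against 640.4 and 316) ran the same way.

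The genes with the widest gap between the groups were chosen for that gap, so their separation is a description and carries no test. Cck, which encodes the neuropeptide cholecystokinin, came first among those higher after withdrawal. Its signals were 19.1 and 6.1 with doxycycline and 127 and 198 after withdrawal, and 110.0 and 163 on the estradiol arrays. Ptprv, a receptor-type tyrosine phosphatase, had 11.4 and 12.3 against 95.1 and 58.3. Pabpc4, a poly(A)-binding protein, had 350.2 and 319 against 864 and 745. In these 3 genes the lower withdrawal array exceeded the higher doxycycline array by 1.64, 1.03 and 1.02 log2 units. Other probe sets were dimmer and gave smaller differences, of 0.20 and 0.53 for Ptprv and 0.61 for Pabpc4. Acly, which makes cytosolic acetyl-CoA for lipid synthesis, had 905 and 711 against 1738 and 1920 (gap 0.92). Bzw2, a regulator of translation initiation, had 298 and 223 against 795 and 589 (gap 0.91). Both were bright on all 4 arrays and clearly apart. Cbx5, the heterochromatin protein HP1 alpha, had 109.3 and 73.6 against 222 and 258 (gap 0.84), although its other probe set differed by 0.09. Wwc1, a scaffold of the Hippo pathway, stood apart in the probe set ranked here (gap 0.85) and differed by 0.65 in the other. Ppp1r14b, an inhibitor of protein phosphatase 1, and Cdk2ap1, a partner of CDK2, had closely spaced replicates. Ppp1r14b had 679 and 721 against 1352 and 1319, and Cdk2ap1 had 458 and 475 against 895 and 837. The other members of the 15 were Snrp1c-ps2, a small nuclear ribonucleoprotein pseudogene whose probe set may read its relatives, the spindle gene Aspm, T2, Rag1, Lgi4 and Trim47, with gaps of 0.77 to 0.96. Other probe sets of Rag1 and Trim47 were at 11.2 or less on all 6 arrays.

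The 15 genes with the widest gap below were chosen in the same way. Nid2, a basement membrane protein, had 84.8 and 95.8 with doxycycline and 20.8 and 11.1 after withdrawal, the widest gap of a named gene in this direction (1.15). Thbs3, a thrombospondin, had 244 and 269.6 against 72.2 and 119.2 (gap 0.87). Xdh, which oxidises hypoxanthine and xanthine to uric acid, had 326 and 644 against 105.4 and 165 (gap 0.86). Ptgfr, the receptor of prostaglandin F2 alpha, had 773 and 308 against 160.2 and 100.2 (gap 0.82), and its other probe set was dim and differed by 0.18. S1pr3, a receptor of sphingosine 1-phosphate, had 1276 and 1072 against 606 and 381 (gap 0.79). Arhgef25 had 825 and 754 against 402 and 307 (gap 0.86). Rgcc, a regulator of cell cycle progression, had 53.8 and 65.1 against 7.0 and 14.0, and Gla, the lysosomal alpha-galactosidase, had 125.7 and 99.0 against 44.0 and 41.8. The other 7 of the 15 were Prss30, Mogat2, Scnm1, Wnk2, Olfr157, Septin11 and Ddx19b. In all of them but Septin11 the withdrawal arrays were at 20.4 or less and the doxycycline arrays lay between 34.9 and 73.8. For Wnk2 and Mogat2 the other probe sets differed by 0.10 and -0.05.

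**Figure D2:**
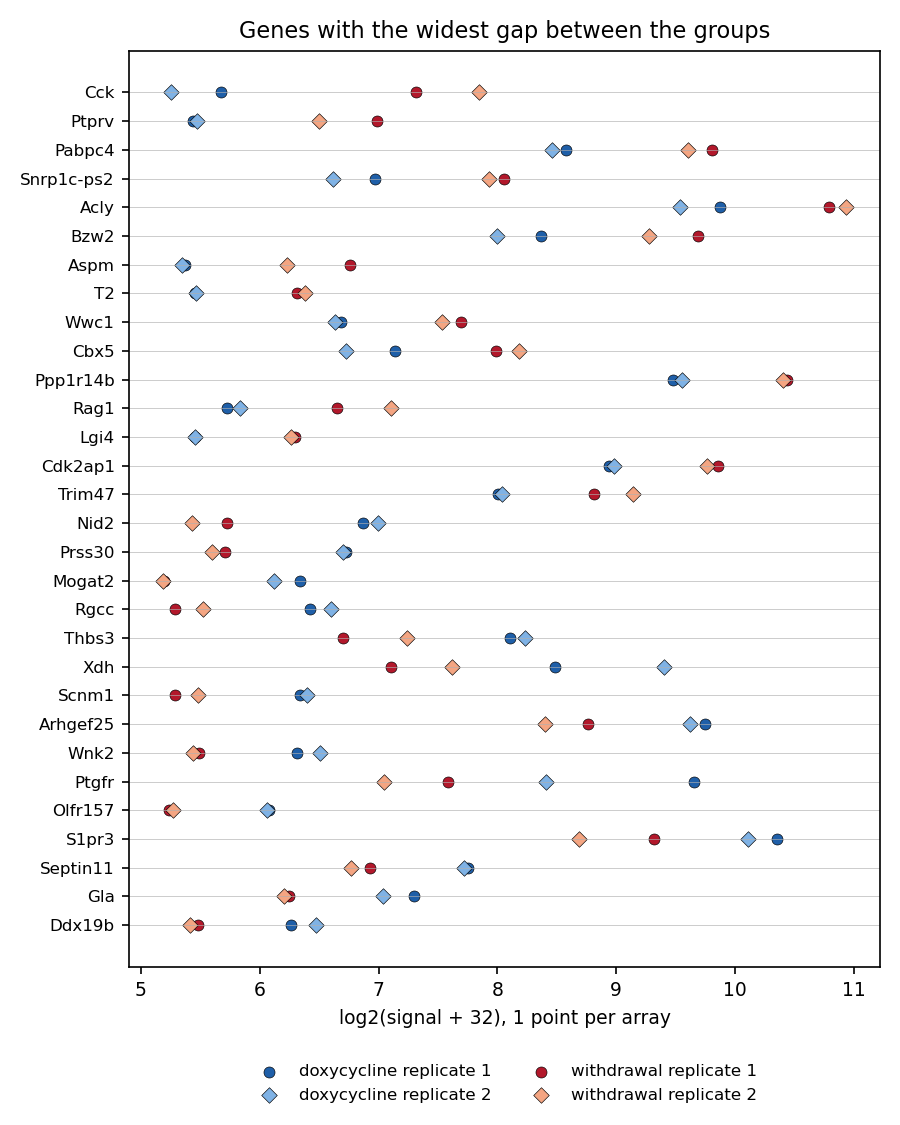
Log2(signal + 32) on each of the 4 arrays (x axis) for the 15 genes with the widest gap above (top) and below (bottom) the doxycycline arrays. In every gene shown both withdrawal arrays lie on one side of both doxycycline arrays, which is how the genes were chosen, and the distance is largest for Cck.

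Mitosis genes were the list with the largest shift towards higher signals after withdrawal, and the withdrawal arrays differed. The median signal of the list was 126.5 and 60.1 with doxycycline and 251.45 and 125.05 after withdrawal. Withdrawal replicate 2 was thus at the level of doxycycline replicate 1. Of 42 measured genes, 40 were higher and 2 lower. The median was 0.73 (replicate 1 at 1.01 and replicate 2 at 0.46), beside 4225 higher and 4025 lower of 8251 named genes and a median of 0.01. Withdrawal replicate 1 was the highest of the 4 arrays for 40 genes. Doxycycline replicate 2 was the lowest for 31. The groups did not overlap in 17 genes, all higher (40.5%, against 16.1% of all named genes), and 0 genes passed limma's test. The arrays read RNA of whole cultures, so more dividing cells and more RNA per cell cannot be told apart. Without withdrawal replicate 1 the median was 0.23, without withdrawal replicate 2 it was 1.31, and without doxycycline replicate 2 it was 0.43. The stretches below come from the promoters of 3 mitosis genes, picked among those that held both motifs of a pair. Most promoters of the list share this pair: the cell cycle homology element TTTGAA and the CCAAT box. In cell cycle promoters the first is known to be bound by the DREAM complex and the second by the factor NF-Y. The stretches are from RefSeq on GRCm38.p6, written 5′ to 3′ in the direction of the gene, with matches to either motif on either strand in capitals. They lie at chr7:135716470-135716569, minus strand, for Mki67, at chr3:27153911-27154010, minus strand, for Ect2 and at chr4:52439041-52439140, plus strand, for Smc2.
Mki67: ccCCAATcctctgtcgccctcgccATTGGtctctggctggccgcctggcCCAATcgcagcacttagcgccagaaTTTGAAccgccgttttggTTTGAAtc
Ect2: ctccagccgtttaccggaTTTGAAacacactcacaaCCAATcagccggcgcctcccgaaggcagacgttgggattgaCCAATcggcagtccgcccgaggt
Smc2: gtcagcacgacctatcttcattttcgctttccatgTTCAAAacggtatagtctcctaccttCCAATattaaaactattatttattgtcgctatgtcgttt
Windows of 300 bases, from 250 before to 50 after the start, were at hand for 34 of the 42 genes (37 windows). TTTGAA was found in 70.3% of them and CCAAT in 75.7%, and both in 64.9%, whereas 17.9%, 37.4% and 6.95% of all 32851 windows held them. These are matches of letters, not shown binding.

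Mki67, the Ki-67 protein of dividing cells, had signals of 65.0 and 31.3 with doxycycline and of 244 and 129.8 after withdrawal. The mitotic kinesins Kif20a and Kif2c had 115 and 45.3 against 398 and 138.3, and 139.4 and 77.5 against 345 and 188.8. Bub1, a kinase of the spindle checkpoint, had 42.5 and 7.6 against 155.5 and 48.7. These 4 genes were at least 2-fold higher in both replicate numbers. Their dimmer probe sets differed by -0.26 for Mki67, 0.69 for Kif20a and 0.32 and -0.10 for Bub1. Elsewhere the withdrawal arrays parted. Cdc20, the activator of the anaphase-promoting complex, had 828 and 412 against 2973 and 514, and Cdk1, the mitotic kinase, had 491 and 263 against 1266 and 427. For both, withdrawal replicate 2 lay below doxycycline replicate 1. Ect2, which sets up cytokinesis, had 48.3 and 55.1 against 238 and 71.7, and Smc2, a condensin subunit, had 49.4 and 35.2 against 192.2 and 62.7. Both were clear of overlap, with most of the difference in replicate 1. Stmn1, the microtubule destabiliser stathmin, was the reverse, with 641 and 255 against 835 and 808. The 2 genes that were lower, Ube2c and Cenpe, had signals of at most 55.8.

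**Figure D3:**
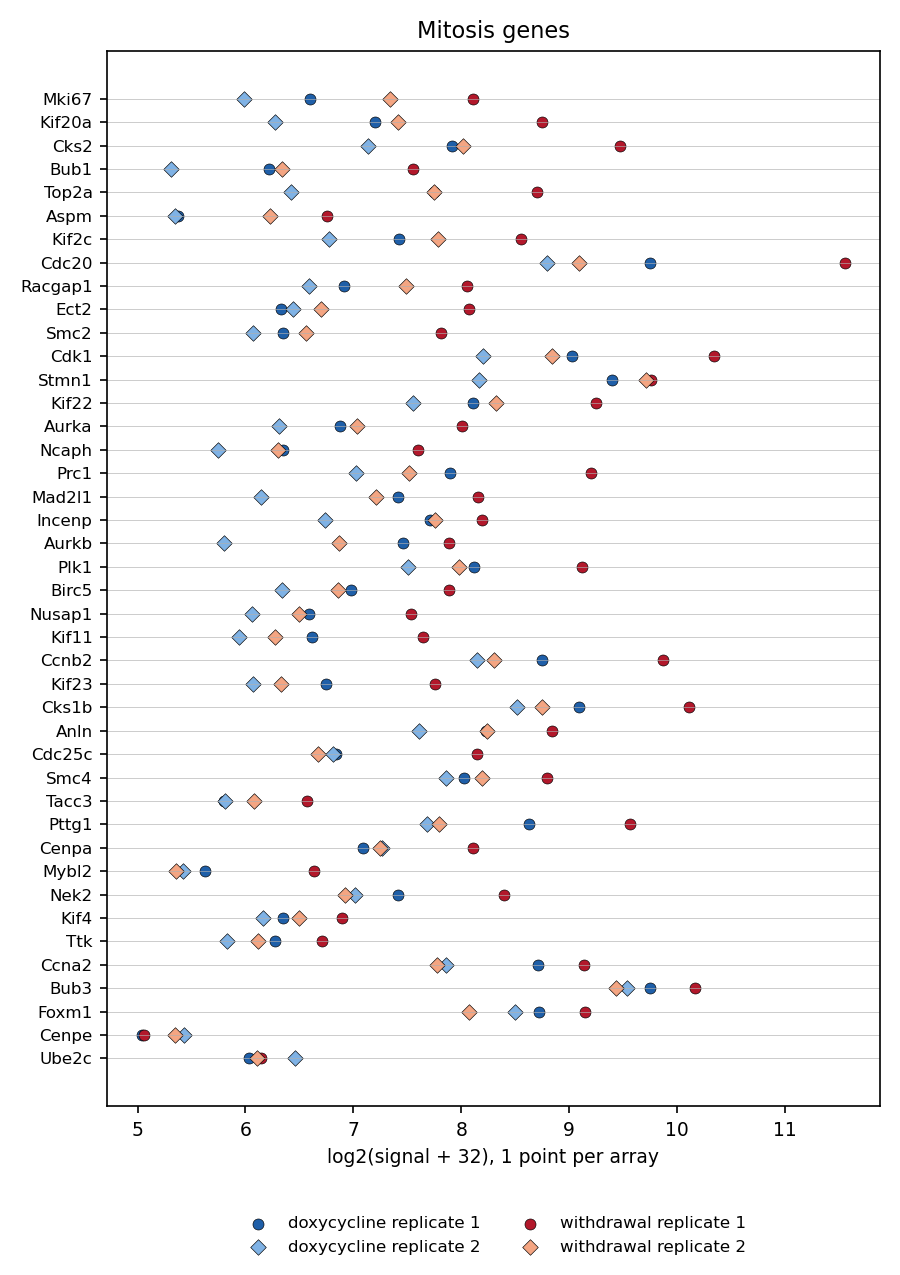
Log2(signal + 32) on each of the 4 arrays (x axis) for the 42 mitosis genes, ordered by the mean difference. Withdrawal replicate 1 (dark red circles) lies furthest right for 40 genes, while withdrawal replicate 2 lies beside or below doxycycline replicate 1 for many and doxycycline replicate 2 is furthest left for 31.

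DNA replication genes had the same order of arrays. Of 41 genes, 37 were higher and 4 lower (median 0.48, with 0.60 in replicate 1 and 0.15 in replicate 2), and withdrawal replicate 1 was the highest array for 38. The groups were apart in 8 higher genes (19.5%, near the 16.1% of all named genes). They were apart in 1 lower gene (2.44%, against 15.3%). Pcna, the sliding clamp, had 251 and 169.6 with doxycycline and 632 and 331 after withdrawal, and the flap endonuclease Fen1 had 85.5 and 42.5 against 211 and 133.1. The helicase subunit Mcm7 had 328 and 214 against 665 and 215, so that withdrawal replicate 2 was at the level of doxycycline replicate 2. Without withdrawal replicate 1 the median of the list was -0.0021, without withdrawal replicate 2 it was 0.89 and without doxycycline replicate 2 it was 0.20.

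Ribosome biogenesis genes, which Myc is known to drive, were higher after withdrawal in 34 of 37, with a median of 0.26. The difference lay in replicate 1: withdrawal replicate 1 was the highest array for all 37 genes, the median was 0.64 in replicate 1 and -0.11 in replicate 2, and it was -0.10 without withdrawal replicate 1 and 0.76 without withdrawal replicate 2. In 10 genes, all higher, the groups did not overlap (27.0%, against 16.1% of all named genes). Pa2g4 had 48.4 and 32 with doxycycline and 160.9 and 75.7 after withdrawal, and Nolc1, a nucleolar chaperone, had 28.3 and 18.9 against 61.9 and 48.4. Ddx21, a nucleolar RNA helicase, had 194 and 206 against 451 and 281. The E-box CACGTG, the sequence that Myc and Max bind, was found in 12.5% of 40 windows of this list and in 7.15% of all windows. It was found in 6.9% of 29 windows of nucleotide synthesis genes and in 9 of 30 windows of lysosome genes. Other factors that bind this sequence are the regulators of lysosome genes TFEB and TFE3.

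Genes of nucleotide, polyamine and protein production were also mostly higher. Of 24 nucleotide synthesis genes, 19 were higher (median 0.39). In 9, all higher, the groups did not overlap (37.5%, against 16.1% of all named genes). The median was 0.17 without withdrawal replicate 1, 0.75 without withdrawal replicate 2 and 0.20 over all probe sets of these genes. Rrm1, the large subunit of ribonucleotide reductase, had 296 and 179.6 with doxycycline and 510.3 and 366 after withdrawal, and Cad, which starts pyrimidine synthesis, had 134.2 and 86.5 against 245 and 162.6. In both genes the withdrawal arrays were above both doxycycline arrays. Of 6 genes of polyamine synthesis and its control, 4 were higher and 2 lower. Their median was 0.18, or 0.28 without doxycycline replicate 1. It was 0.35 with withdrawal replicate 1 left out and -0.06 with withdrawal replicate 2 left out. The spermidine synthase gene Srm had 204 and 179.3 against 663 and 253, and Odc1, ornithine decarboxylase, had 100.3 and 74.6 against 181.7 and 118.2. Of 37 tRNA synthetase and translation factor genes, 30 were higher. Their median was 0.20, or 0.00 without withdrawal replicate 1 and 0.40 without withdrawal replicate 2. In this list 11 were clear of overlap above (29.7%, against 16.1% of all named genes) and 1 below. Of 35 cytosolic ribosomal protein genes, 21 were higher (median 0.08), and withdrawal replicate 1 was the highest array for 26. The median was -0.20 without withdrawal replicate 1 and 0.30 without withdrawal replicate 2.

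Protein quality control genes went both ways. Of 24 heat shock and chaperonin genes, 22 were higher after withdrawal (median 0.34, with 0.77 in replicate 1 and 0.01 in replicate 2), and of 34 proteasome genes 25 were higher (median 0.27, with 0.49 and 0.01). In 12 proteasome genes, all higher, the groups did not overlap (35.3%, against 16.1% of all named genes). Psma6 had 812 and 902 with doxycycline and 1517 and 1261 after withdrawal, and Psmd10 had 54.9 and 48.8 against 102.2 and 97.9. Genes of the endoplasmic reticulum stress response were among those lower: Ddit3, the stress factor CHOP, had 271 and 481 against 124.9 and 155.5, the chaperone Hspa5 (BiP) had 1638 and 1984 against 1238 and 1179, and Pdia4 had 401 and 401.3 against 232 and 159.6. Over the whole list of amino acid supply and unfolded protein genes, 11 were higher and 14 lower (median -0.16, which was 0.13 without doxycycline replicate 2 and -0.25 without doxycycline replicate 1). Without withdrawal replicate 1 the medians were -0.01 for heat shock and -0.02 for the proteasome, and without withdrawal replicate 2 they were 0.65 and 0.47.

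Glycolysis and lipid synthesis genes differed in which replicate number held the larger values. Of 17 glycolysis genes, 14 were higher. Replicate 1 had a median of 0.78 and replicate 2 one of -0.04. The median of both was 0.37, or 0.23 without doxycycline replicate 1. Leaving out withdrawal replicate 1 gave 0.09, and leaving out withdrawal replicate 2 gave 0.65. Pgam1 had 945 and 957 with doxycycline and 2426 and 1278 after withdrawal, and the glucose transporter Slc2a1 had 165.4 and 255 against 346 and 349. Of 24 sterol and fatty acid synthesis genes, 17 were higher. Here replicate 1 had a median of -0.02 and replicate 2 one of 0.56, and withdrawal replicate 2 was the highest array for 15. The median of both was 0.21, and leaving out 1 array moved it from 0.03 (without doxycycline replicate 2) to 0.44 (without withdrawal replicate 1), with 0.11 without withdrawal replicate 2 and 0.38 without doxycycline replicate 1. Fasn, the fatty acid synthase, had 672 and 354 against 539 and 956, and Lss, of sterol synthesis, had 539.9 and 385 against 591 and 714. Among the antioxidant, glutathione and iron genes 22 of 30 were higher (median 0.16, with 0.15 and 0.27, or 0.32 without doxycycline replicate 1), among them the thioredoxin reductase Txnrd1 with 362 and 308 against 506 and 505, and Nqo1 with 20.4 and 18 against 42.0 and 72.4.

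Lysosome genes were lower after withdrawal in 26 of 31. Their median was -0.30, and by replicate number it was -0.54 (replicate 1) and -0.09 (replicate 2). In 11 of them both withdrawal arrays lay below both doxycycline arrays (35.5%, against 15.3% of all named genes), and in 1 above. Npc2, which carries cholesterol out of lysosomes, had 4925 and 6249 with doxycycline and 2689 and 3103 after withdrawal. The protease cathepsin B (Ctsb) had 3301 and 4030 against 1986 and 2582. Psap, the precursor of the saposins, had 4538 and 5746 against 3102 and 1274, and the membrane protein Laptm4a had 6012 and 7855 against 3838 and 1170. Npc2 and Ctsb differed by similar amounts in both replicate numbers, while Psap and Laptm4a differed mostly in replicate 2. The other 2 probe sets of Psap disagreed, with differences of -2.21 and -0.02. Lamp2, a major membrane protein of lysosomes, had 1047 and 1293 against 490 and 1430, low in withdrawal replicate 1 only. Without withdrawal replicate 1 the median was -0.00, without withdrawal replicate 2 -0.56 and without doxycycline replicate 2 -0.19.

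By their medians, matrix protein genes and genes of arrested fibroblasts were low in withdrawal replicate 1 and not in withdrawal replicate 2. Some matrix protein genes were low on both withdrawal arrays. In 8 of the 44 the groups did not overlap below (18.2%, against 15.3% of all named genes), and in 0 above (0.0%, against 16.1%). Of 44 matrix protein genes, 14 were higher and 30 lower (median -0.11, with -0.55 in replicate 1 and 0.09 in replicate 2), and withdrawal replicate 1 was the lowest array for 28 and withdrawal replicate 2 the highest for 19. Col1a2 had 8208 and 9197 with doxycycline and 5436 and 7071 after withdrawal, apart in both replicate numbers. Vcan, the proteoglycan versican, had 1019 and 637 against 295 and 1276, and Thbs2 had 1522 and 668 against 406 and 1753. In both, the withdrawal arrays were the lowest and the highest of the 4. Without withdrawal replicate 1 the median of the list was 0.04, without withdrawal replicate 2 it was -0.52 and without doxycycline replicate 2 it was -0.24. For the 21 growth arrest genes the medians were -0.88 (replicate 1) and 0.28 (replicate 2). The median of both was -0.17, and it was 0.23 without withdrawal replicate 1, -0.64 without withdrawal replicate 2, -0.05 without doxycycline replicate 1 and -0.30 without doxycycline replicate 2. Gas1, named for its rise in growth-arrested fibroblasts, had 2352 and 1395 against 897 and 2623, and Pdgfra, a receptor of platelet-derived growth factor, had 2587 and 1966 against 591 and 2139. Matrix enzymes and inhibitors were lower in 15 of 21, with 7 clear of overlap below (33.3%, against 15.3% of all named genes) and 1 above. Their median was -0.13, and it was -0.31 without withdrawal replicate 2 and -0.06 without doxycycline replicate 2. The metalloproteinase inhibitor Timp2 had 1771 and 1332 against 624 and 813.

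Actin cytoskeleton genes were evenly divided, with 13 higher and 17 lower, and their medians were -0.39 in replicate 1 and 0.29 in replicate 2. The median of both was -0.04, and it was 0.22 without withdrawal replicate 1, -0.29 without withdrawal replicate 2, 0.04 without doxycycline replicate 1 and -0.23 without doxycycline replicate 2. Growth factor and receptor genes were lower in 19 of 33. The groups did not overlap in 10 below (30.3%, against 15.3% of all named genes) and in 2 above. Their median was -0.20 (replicate 1 at -0.30 and replicate 2 at 0.03), or -0.11 without doxycycline replicate 1. It was -0.03 when withdrawal replicate 1 was left out and -0.43 when withdrawal replicate 2 was. Fgf7 had 1434 and 790 with doxycycline and 437 and 501 after withdrawal, Igfbp6 had 1874 and 2863 against 1337 and 1102, and Vegfa had 159.4 and 218 against 112.6 and 98.4. Those 3 were low on both withdrawal arrays.

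Some genes had at least 2-fold differences of opposite sign in the 2 replicate numbers, and these were chosen for that. Sox4, a transcription factor of progenitor cells, had 412 and 269.5 with doxycycline and 77.4 and 2088 after withdrawal, and its brighter probe set had 2902 and 1698 against 569 and 3872. The chemokine Ccl9 had 1080 and 219 against 270.5 and 2396. Smooth muscle actin (Acta2) had 396 and 151.1 against 109.8 and 843. Id2, an inhibitor of differentiation factors, had 257 and 143.5 against 26.2 and 485. In these genes the withdrawal arrays were the lowest and the highest of the 4, except that doxycycline replicate 2 was the lowest for Ccl9. Lxn, Mapk7, Phldb2 and Nacc2 had the same signs. In the other direction, Rcc2, a mitotic regulator of chromosome positioning, had 199.7 and 249 against 449 and 99.8, while its brighter probe set differed by 0.43 and -0.20. The splicing factor gene Snrpd3 had 165 and 130.2 against 370.4 and 42.5. In these probe sets of both genes the withdrawal arrays were again the highest and the lowest. The immunoproteasome subunit Psmb10 had 213 and 803 against 578 and 161.6, where doxycycline replicate 2 was the highest. Zxda, Gbp2, Cytip, Myrf and Rfc1 completed that set, and the other Rfc1 probe set, which was brighter, differed by 0.02 and 0.72.

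Interferon-stimulated genes set 1 array apart. Of 31 measured genes, 28 were lower after withdrawal, with a median of -1.17, but the difference lay in replicate 2 (-2.56) and not in replicate 1 (0.14). Doxycycline replicate 2, the array whose title also names estradiol, was the highest of the 4 arrays for 27 of the 31. Without it the median was 0.20, and without doxycycline replicate 1 it was -2.45. At least 2-fold lower signals were found for 23 of the genes in replicate 2 (background 2.83% of probe sets) and for 1 in replicate 1. The groups were free of overlap in 5 genes below (16.1%, against 15.3% of all named genes) and 1 above. The stretches below are from the promoters of 4 genes. These were picked among genes with large replicate 2 differences whose promoters held the motif, so its presence in them is no result. The stretches show matches to GAAA followed by any 2 bases and by GAAA again, a short form of the interferon-stimulated response element that IRF proteins bind. Matches on either strand are in capitals, with overlapping matches run together. The source, build and direction are as for the mitosis genes. The stretches lie at chr4:156200836-156200935, minus strand, for Isg15, at chr19:34583345-34583444, plus strand, for Ifit3, at chr12:26456518-26456617, minus strand, for Rsad2 and at chr19:34640749-34640848, plus strand, for Ifit1.
Isg15: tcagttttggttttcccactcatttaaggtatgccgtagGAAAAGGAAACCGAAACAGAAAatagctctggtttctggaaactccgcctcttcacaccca
Ifit3: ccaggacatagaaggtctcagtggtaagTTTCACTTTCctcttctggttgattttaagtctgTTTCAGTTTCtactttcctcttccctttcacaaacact
Rsad2: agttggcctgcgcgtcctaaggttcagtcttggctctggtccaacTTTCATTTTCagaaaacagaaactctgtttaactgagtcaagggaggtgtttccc
Ifit1: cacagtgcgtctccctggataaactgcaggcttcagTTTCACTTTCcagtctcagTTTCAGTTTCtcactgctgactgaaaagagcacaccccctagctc
Windows were at hand for 25 of the 31 genes. The motif was found in 12 of their 34 windows (35.3%), in 2 of 17 windows of MHC class I presentation genes (11.8%) and in 3.44% of all windows.

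Isg15, a ubiquitin-like antiviral protein, had signals of 158.8 and 4709 with doxycycline and of 288 and 79.0 after withdrawal, and 299 and 110.8 on the estradiol arrays. Ifit3 and Ifit1, which bind viral RNA or its partners, had 52.0 and 2339 against 65.2 and 74.1, and 41.9 and 2363 against 66.0 and 125.0. Rsad2, the antiviral enzyme viperin, had 4.2 and 662 against 39.7 and 5.0. In each of these, doxycycline replicate 2 alone was high. The other doxycycline array was no higher than withdrawal replicate 1. The guanylate-binding protein Gbp2 had 169 and 2377 against 427 and 148.9, and Usp18, which removes Isg15 from proteins, had 20.5 and 1702 against 29.5 and 63.5. Irf1 itself had 219 and 320 against 212 and 204, a small part of the spread seen in Isg15. Irf5 and Oas1g were lower on both withdrawal arrays, at 31.0 and 24.7 against 60.4 and 90.7 for Irf5, and at 2.9 and 4.3 against 11.4 and 24.0 for Oas1g. Ifi30, a lysosomal thiol reductase of antigen processing, ran the other way, with 118.5 and 78.0 against 223 and 165.8.

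**Figure D4:**
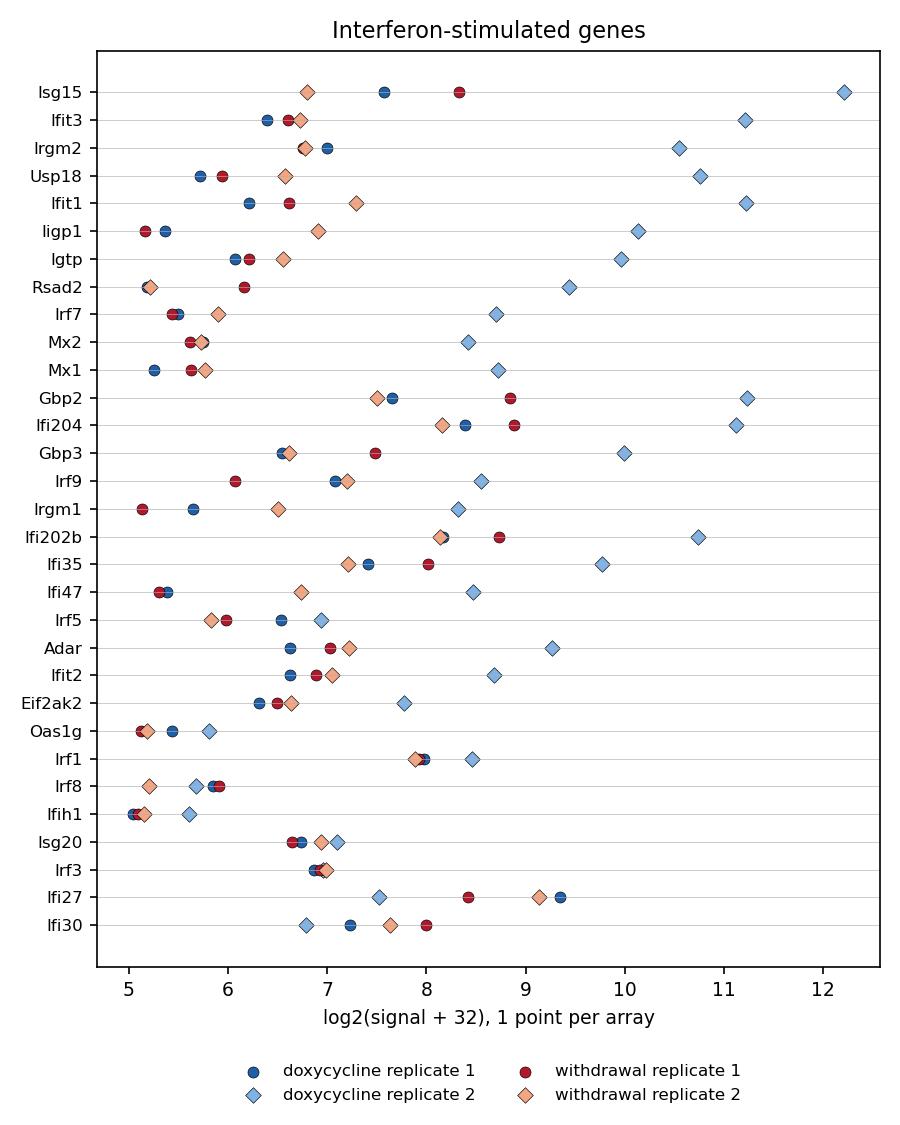
Log2(signal + 32) on each of the 4 arrays (x axis) for the 31 interferon-stimulated genes, ordered by the mean difference. Doxycycline replicate 2 (light blue diamonds) lies far to the right for most genes, while the other 3 arrays lie close together.

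MHC class I presentation genes had the same array at the top. Of 22 genes, 19 were lower after withdrawal (median -0.70, with -0.16 in replicate 1 and -1.41 in replicate 2), and doxycycline replicate 2 was the highest array for 19. Without it the median was -0.17, and without doxycycline replicate 1 it was -1.34. H2-D1, a classical class I heavy chain, had 1953 and 6860 with doxycycline and 1613 and 1530 after withdrawal, and the light chain B2m had 2363 and 5474 against 1427 and 2147. The peptide transporter Tap1 had 132.7 and 469 against 135.9 and 119.7. The groups did not overlap in 11 of the 22 genes below (against 15.3% of all named genes) and in 1 above. H2-T18 was 1 of the 11, with 211 and 353 against 115.2 and 105.4. Class I heavy chains are near-identical copies, so that their probe sets may share transcripts.

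The 4 genes called without doxycycline replicate 1 were high on the same array. They were Cd74, the invariant chain of MHC class II, H2-Aa, a class II chain, Ifit3 and the chemokine Ccl5, with differences of -5.09, -5.18, -4.55 and -5.56 and an adjusted p of 0.0326 with limma for each. Doxycycline replicate 2 stood alone in its group there. The spread in that test came from the withdrawal and estradiol arrays alone, and the single doxycycline array was assumed to vary like them. Cd74 had 43.4 and 2743 with doxycycline and 46.3 and 52.5 after withdrawal, H2-Aa had 4.8 and 1317 against 6.5 and 4.1, and Ccl5 had 4.8 and 2028 against 11.5 and 12.1. The class II activator Ciita, looked up after these values were seen, had 6.5 and 92.9 against 12.7 and 30.6. Ciita had 7.6 and 52.8 on the estradiol arrays, so each replicate 2 array was above the replicate 1 arrays for this gene. The signals of Cd74, H2-Aa, Ifit3 and Ccl5 were high on doxycycline replicate 2 alone. Class II genes are also made by macrophages and B cells. On the same array the 8 macrophage markers summed to 629, against 540 on doxycycline replicate 1 and 563 and 559 after withdrawal. Their median signal there was 29.85, against 9.5 on doxycycline replicate 1 and 24.35 and 12.5 after withdrawal, and 3 of the 8 were highest on it. Among the 8, Ptprc (CD45) was at 4.3, Adgre1 at 7.5 and Itgam at 7.7 on it. Most of the sum came from the other markers, which were Cd14, Cd68, Csf1r, Lyz2 and Fcgr3. The 7 lymphocyte markers summed to 114, against 165, 94 and 152. On the arrays treated with estradiol for 48 h after withdrawal, Cd74 had 53.3 and 86.0 and Ccl5 24.0 and 16.9. The part of estradiol, named in the title of doxycycline replicate 2, and that of other cells in that array's values were not tested.

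**Figure D5:**
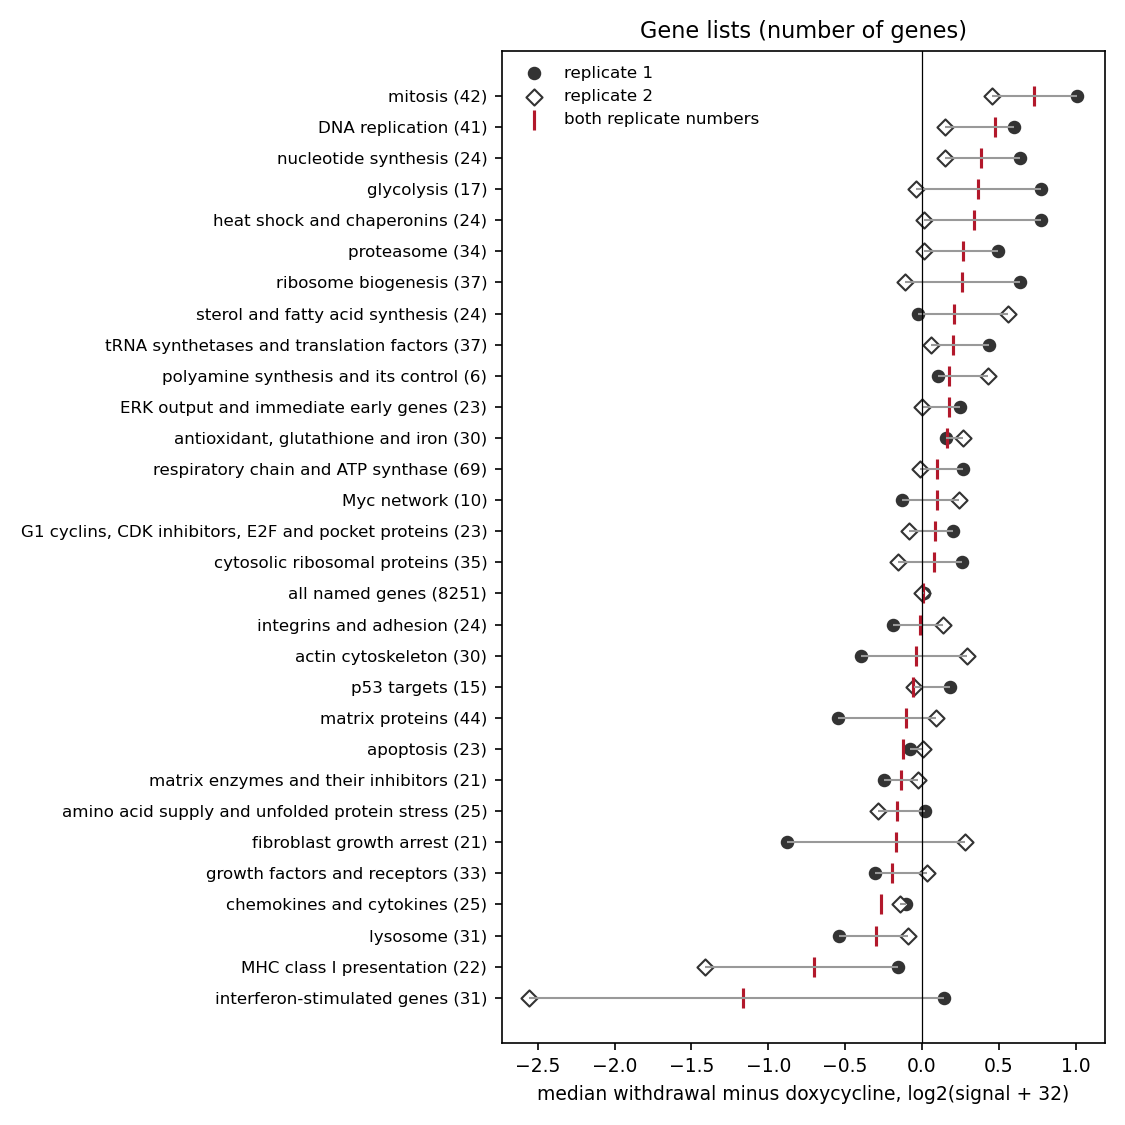
Median withdrawal minus doxycycline on the log2(signal + 32) scale (x axis) for each gene list, in replicate 1 (filled circles), replicate 2 (open diamonds) and for the mean of both (red bars), with all named genes for comparison. The median lies at 0.01 for all named genes, at 0.73 for mitosis and at -1.17 for interferon-stimulated genes, and the 2 replicate numbers lie far apart for the interferon, growth arrest and matrix protein lists.

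The lists of p53 targets (7 of 15 higher, median -0.06), apoptosis genes (10 of 23 higher, -0.12), integrins and adhesion genes (10 of 24, -0.01) and respiratory chain genes (48 of 69, 0.10) had medians close to 0. With 1 array left out these medians changed sign: p53 targets were at 0.11 without withdrawal replicate 2, apoptosis genes at 0.01 without doxycycline replicate 1, adhesion genes at 0.09 without doxycycline replicate 1 and respiratory chain genes at -0.01 without withdrawal replicate 1. Of the chemokines and cytokines, 17 of 25 were lower (median -0.27, with -0.11 in replicate 1 and -0.14 in replicate 2). In 7 of the 25 the groups were clear of overlap below (against 15.3% of all named genes), and in 1 above. The median was -0.04 without withdrawal replicate 1 and -0.06 without doxycycline replicate 2. Csf1, the macrophage growth factor, had 1419 and 1324 with doxycycline and 681 and 1214 after withdrawal. In no list did a member pass limma's test.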

How the data were processed

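RNA from mouse NIH3T3 cells was hybridised to 1-colour Affymetrix arrays, 1 array per sample. The deposited intensities were made with MAS5, per the submitters' processing notes. Settings and genome build: not given in the sources used here. Arrays carry no counts, and their number, 2 per group, limits the precision. Of 12488 probe sets, 66 controls were left out and 12422 were compared. Platform annotation gave 10833 of these 1 gene symbol, 396 several and 1193 none (8251 genes).

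Signals were turned into log2(signal + 32), with no filter on dim probe sets. Limma 3.58.1 in R 4.3.3 was fitted with 1 mean per group over all 6 arrays (3 residual degrees of freedom), an intensity trend and Benjamini-Hochberg adjustment at 0.05, and was tested on simulated data. Tables were made with Python 3.11.15. Since separate cultures are not stated, p-values cover the spread between arrays alone, and that spread may be technical. Gene lists used each gene's brightest probe set.

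Named genes were the study's genes, the 15 with the widest gap per direction (lowest array of the higher group minus highest of the lower), the 8 with the largest opposite differences per direction, up to 4 per list and other probe sets of these. Genes at least 2-fold apart in both replicate numbers, further list members and genes lower or higher on a single array were added after their values were seen. The members and lists were chosen with earlier results of these data known. The replicate number marks a shared extraction method in the labels and so pairs the arrays by label, but deviations from the group means correlated at -0.0183 between the groups. Promoter windows came from RefSeq (GRCm38.p6) and were matched by symbol. Alternatives were other pseudocounts, quantile normalization, a filter, a replicate block, the 4 arrays alone and leaving out each array.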

Additional observations from a re-analysis of the deposited data

How the results depend on the processing

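The count of 0 genes called held under pseudocounts of 16 and 64, quantile normalization, leaving out the dimmest 40% of probe sets, the 4 arrays alone and no intensity trend. With the replicate number as a block it was 0 too. Leaving out 1 array in turn gave 0 to 4. With the dimmest 40% left out, 1255 probe sets were higher and 1120 lower without overlap, of 7454 tested. Counts without overlap with 1 array left out, an alternative chosen after seeing the data, ran from 3690 to 4523 higher and from 3352 to 4280 lower, since fewer arrays overlap less often. At least 2-fold differences in both replicate numbers depended on the pseudocount, with 34 higher and 31 lower at 16 and 8 and 3 at 64. Opposite differences, another alternative chosen after seeing the data, numbered 32 (higher in replicate 1) and 82 at 16 and 2 and 28 at 64. With 1 array left out, the median ran from 0.23 to 1.31 for mitosis and from -0.0021 to 0.89 for DNA replication. Over the 29 lists, leaving out 1 array changed the sign of the median in 17 and not in 12. The 12 were mitosis, nucleotide synthesis, glycolysis, sterol and fatty acid synthesis, translation factors, ERK output, antioxidant genes, lysosome, matrix enzymes, growth factors, chemokines and MHC class I presentation. A kept sign could still mean a median close to 0, with -0.0027 for lysosome and 0.003 for translation factors, both without withdrawal replicate 1. For glycolysis, sterol and fatty acid synthesis and growth factors, the medians of the 2 replicate numbers had opposite signs. Many of the values that moved stand beside each list's result, but not all. The median of apoptosis genes was also -0.04 without doxycycline replicate 2 and -0.05 without withdrawal replicate 2. That of chemokines and cytokines was -0.31 at a pseudocount of 16 and -0.20 at 64. Over all probe sets of the genes, the median was -0.07 for growth arrest, -0.03 for matrix proteins, -0.10 for growth factors and 0.01 for cytosolic ribosomal proteins. Signals near or below 32 are close to background, so low genes are measured less well.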
